A study of Homo sapiens with 14 samples.

Results

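The comparison described here is the change from 3 to 12 h of exposure to proanthocyanidins (PA) in PANC-1 cells. It rests on 4 small RNA libraries, 2 of PA at 3 h and 2 of PA at 12 h, out of 14 libraries in the series. The members were chosen by their labels alone, and every entry of the count table was read. PANC-1 is an established line of human pancreatic ductal cancer cells, and PA are polymers of flavan-3-ols given at 20 µg/ml. All cultures were kept in medium with foetal bovine serum. The groups used were PA 3 h and PA 12 h, with DMSO 3 h and DMSO 12 h as the same interval in the vehicle, and each held a library A and a library B. PA 24 h, DMSO 0 h and DMSO 24 h, also with 2 libraries each, entered the fit to share its estimate of spread. The series' design text speaks of biological replication but does not say that A and B were separate cultures, and p-values measure only how these libraries spread, which may in part be technical. All groups share 1 cell line, and what holds in it was not measured in another. The question addressed was which miRNAs moved as PA exposure went on, apart from any contrast with untreated cells.

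miRNAs are short RNAs, cut from hairpin precursors, that guide Argonaute proteins to messenger RNAs and lower their translation and stability. Pairing rests mainly on the seed, bases 2 to 8 of the mature miRNA, so miRNAs with 1 seed share many targets. Each hairpin can give a 5p and a 3p product, of which the rarer is often called the passenger strand. In pancreatic cancer cells miR-21-5p is the best known abundant miRNA, and the miR-200 family is known to hold cells in an epithelial state by repressing ZEB1 and ZEB2. PANC-1 cells are known for a low level of that family. Many miRNAs lie in clusters cut from 1 transcript, and members of a cluster can therefore move together.

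The mature sequences below belong to the named miRNAs that had the smallest p in the comparison and a RefSeq entry, with the 2 miR-19 miRNAs added because they share a seed. They are RefSeq sequences on GRCh38.p14, written 5′ to 3′ with the seed in capitals.
miR-548k: aAAAGUACuugcggauuuugcu
miR-33b-3p: cAGUGCCUcggcagugcagccc
miR-665: aCCAGGAGgcugaggccccu
miR-210-3p: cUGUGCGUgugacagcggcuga
miR-4454: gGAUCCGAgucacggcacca
miR-19a-3p: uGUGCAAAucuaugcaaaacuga
miR-19b-3p: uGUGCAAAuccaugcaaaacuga
miR-380-5p: uGGUUGACcauagaacaugcgc
miR-335-3p: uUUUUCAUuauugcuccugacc
miR-22-5p: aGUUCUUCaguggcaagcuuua
miR-222-3p: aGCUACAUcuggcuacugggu
miR-27b-5p: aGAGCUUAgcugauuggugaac
let-7a-2-3p: cUGUACAGccuccuagcuuucc
miR-4801: uACACAAGaaaaccaaggcuca
Of these 14 sequences, only the pair miR-19a-3p and miR-19b-3p has a seed in common, GUGCAAA. The unnamed entries of the table, known only by a sequence name and a serial number, are printed without sequence.

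Total counts were 2420626 and 3111014 in the PA 3 h libraries and 1922203 and 2534939 in the PA 12 h libraries, within 1032391 to 3111014 over all 14. CPM values are counts scaled to the sum of all tested entries in a library, after correction by the TMM factor for differences in library makeup. After the removal of entries with low counts 810 were tested, 682 with a human miRNA name and 128 without. Spearman correlations among the 4 PA libraries ran from 0.963 to 0.976. The median absolute log2 difference per entry was 0.23 between the PA 3 h libraries, 0.29 between the PA 12 h libraries and 0.32 to 0.38 across the times. The distance between the times was thus only slightly above the distance between replicates. In DMSO the median was 0.25 within 3 h, 0.50 within 12 h and 0.50 to 0.60 across the times. Chi-square divided by its degrees of freedom was 23.0 between the PA 3 h libraries and 59.6 between the PA 12 h libraries, far above sampling noise, so no library was a copy of its partner. The labels named no batch or date.

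From 3 to 12 h of PA, 0 of 810 entries (0%) passed edgeR's quasi-likelihood test at a Benjamini-Hochberg adjusted p under 0.05, and the smallest adjusted p was 0.131. At an unadjusted p under 0.05 there were 82 entries (10.1%), 38 with a positive change (4.69%) and 44 with a negative one (5.43%). Scaled to total counts in place of TMM, this split was 53 positive and 33 negative, so it leaned the other way. DESeq2 called 4 of the 810, miR-4454 as higher at 12 h and miR-380-5p, chr12_27013 and chr19_36629 as lower. The median log2 fold change over all entries was 0.00 and the quartiles were -0.32 and 0.28. With 2 libraries a group, the 12 h values lay wholly above the 3 h values in 185 entries (22.8%) and wholly below them in 208 (25.7%).

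The count of calls differed with the libraries in the fit. That choice changed the estimate of spread, the scaling and the entries tested together, and their separate parts were not tested. Fitted on the 4 PA libraries alone, edgeR called 20 of 676 entries (2.96%), 11 higher and 9 lower at 12 h. Without both DMSO 12 h libraries 3 entries passed, with only the 6 PA libraries 0 (89 at an unadjusted p under 0.05), and leaving out 1 library gave 3 (without DMSO 12 h A), 4 (without DMSO 12 h B), 6 (without PA 24 h B) or 0 (without any other). The common biological coefficient of variation, the relative spread between libraries of a group, was 0.137 for the 4 libraries, 0.185 for the 6 PA libraries, 0.177 without the DMSO 12 h libraries and 0.203 for all 14. Of the 20 entries called with the 4 libraries alone, 12 were among the 20 with the smallest p in the fit of all 14. The values below come from the fit of all 14 libraries unless the 4 libraries are named, and by edgeR with all 14 and the filter on low counts none of them passed. With no filter on low counts edgeR called 8 of 2848, and DESeq2 called the 4 named above.

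**Figure D1:**
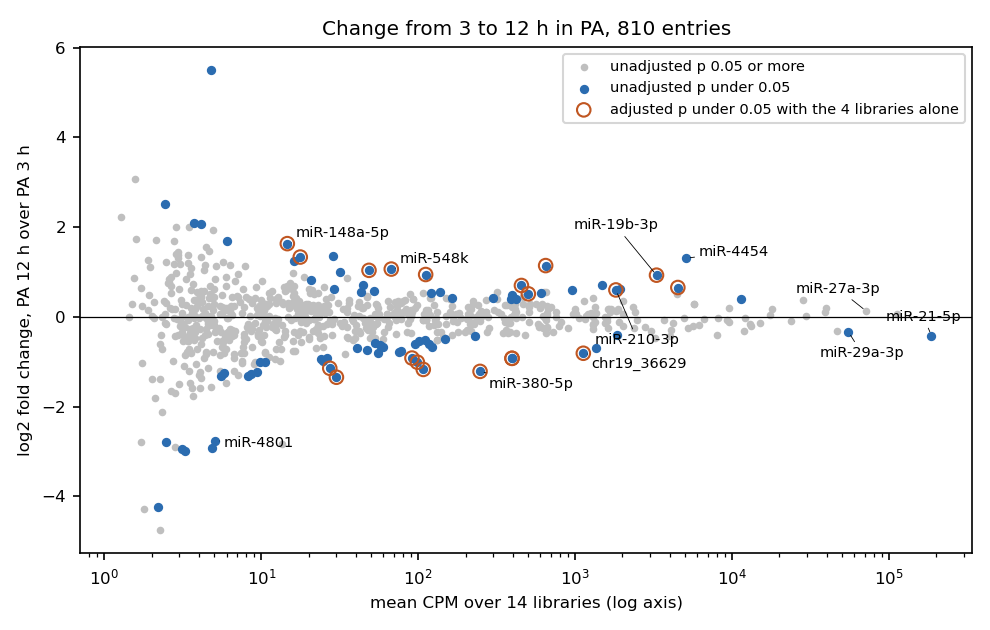
Mean CPM over the 14 libraries (x, log axis) against the log2 fold change of PA 12 h over PA 3 h (y) for 810 entries; filled blue points have an unadjusted p under 0.05 and orange rings mark the 20 entries called with the 4 libraries alone. Points beyond -1 or 1 number 91 and the scatter widens below 10 CPM; the topmost point, miR-6069 (chosen after its values were seen), had 0 counts in both PA 3 h libraries, so its fitted height is no measure of size.

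Among the entries with the smallest p and a positive change, the passenger strand of the miR-148a hairpin, miR-148a-5p, stood at 7.11 and 8.47 CPM at 3 h and at 15.6 and 32.7 CPM at 12 h. Its log2 fold change was 1.63 ± 0.41 (SE; edgeR adjusted p = 0.134). PA 12 h B was far above PA 12 h A, yet both lay above the 3 h pair. The dominant strand, miR-148a-3p, which represses DNMT1, stood at 86.1 and 79.3 CPM at 3 h and 85.8 and 101 CPM at 12 h, so its libraries overlapped. Its log2 fold change was 0.18 ± 0.26.

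miR-548k, from a hairpin in an intron of PPFIA1 at chr11:70283986-70284007 (plus strand, the mature position), had close replicates. It stood at 48.5 and 49.5 CPM at 3 h and 95.9 and 109 CPM at 12 h, a log2 fold change of 1.07 ± 0.26 (edgeR adjusted p = 0.134). With the 4 libraries alone it passed, at 1.10 (adjusted p = 0.00415). In DMSO it stood at 59.3 and 55.0 CPM at 3 h and 59.8 and 107 CPM at 12 h, so the DMSO 12 h libraries lay about as far apart as the PA times.

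miR-33b-3p comes from the hairpin in an intron of SREBF1 (chr17:17813836-17813931, minus strand), the gene of a transcription factor for fatty acid and sterol synthesis. It stood at 38.0 and 29.1 CPM at 3 h and 75.7 and 62.2 CPM at 12 h. The log2 fold change was 1.04 ± 0.32 (adjusted p = 0.234 by edgeR), and 1.07 with the 4 libraries alone, where it passed. At PA 24 h it stood at 66.6 and 64.8 CPM, within the 12 h range, and in DMSO no library of 3 or 12 h was above 41.0 CPM. DMSO 0 h and DMSO 24 h are not described here, and the mean over all 14 libraries was 48.5 CPM. The other strand, miR-33b-5p, which shares the seed of the cholesterol regulator miR-33a-5p, stood at 13.4 and 11.5 CPM at 3 h and 15.6 and 9.17 CPM at 12 h and thus overlapped.

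miR-210-3p, the miRNA best known for induction by hypoxia and for lowering mitochondrial iron-sulfur assembly through ISCU, lies in an intron of MIR210HG (chr11:568089-568198, minus strand). It stood at 1489 and 1666 CPM at 3 h and 2510 and 2277 CPM at 12 h, and its log2 fold change was 0.60 ± 0.18 (edgeR adjusted p = 0.234). The 4 libraries alone gave 0.63, which passed. At PA 24 h it stood at 2486 and 2467 CPM. Over the same interval in DMSO it went the other way, from 1458 and 1381 to 1041 and 820 CPM. With DMSO 24 h in place of DMSO 12 h, where the times differ, the PA change minus the DMSO change was -0.0078. The higher level was thus not particular to PA across the DMSO times.

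miR-4454 stood at 2858 and 3394 CPM at 3 h and at 5302 and 10182 CPM at 12 h, a log2 fold change of 1.31 ± 0.34 (edgeR adjusted p = 0.157; called by DESeq2). It was on the list of entries that overlap tRNA, rRNA, U2 or snoRNA, and its reads were not separated from fragments of such RNAs here. Without PA 12 h B the change was 0.79, and the 12 h pair differed more than the 3 h pair. PA 24 h stood at 7777 and 9331 CPM.

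Further entries with a positive change and a small p were of low or middle abundance. miR-766-3p stood at 10.9 and 11.5 CPM at 3 h and 24.2 and 32.3 CPM at 12 h (log2 fold change 1.33 ± 0.33), and miR-549a at 6.69 and 6.44 against 17.2 and 14.4 CPM (1.25 ± 0.37). miR-665, from an intron of the long non-coding gene AL117190.1 in the imprinted 14q32 region (chr14:100875033-100875104, plus strand), stood at 316 and 357 CPM at 3 h and at 514 and 580 CPM at 12 h (0.70 ± 0.20). In these 3 the groups did not overlap, and miR-766-3p and miR-665 passed with the 4 libraries alone.

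Among negative changes, miR-380-5p stood at 312 and 249 CPM at 3 h and at 113 and 129 CPM at 12 h. This miRNA lies in an intron of MEG8 within 14q32 (chr14:101025017-101025077, plus strand). The log2 fold change was -1.21 ± 0.30 (edgeR adjusted p = 0.134), and -1.18 with the 4 libraries alone (adjusted p = 0.00415). At PA 24 h it was back at 200 and 396 CPM, so the 12 h libraries were the lowest of the 3 PA times. In DMSO it stood at 289 and 263 CPM at 3 h and 232 and 141 CPM at 12 h.

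miR-222-3p, which represses the cell cycle inhibitor CDKN1B and lies in an intron of MIR222HG (chrX:45747015-45747124, minus strand), stood at 1594 and 1475 CPM at 3 h. At 12 h it stood at 1186 and 716 CPM, so the 12 h pair spread more widely than the distance from PA 12 h A to the 3 h pair. Its log2 fold change was -0.69 ± 0.21 (edgeR adjusted p = 0.243), -0.35 without PA 12 h B and -1.11 without PA 12 h A. It did not pass with the 4 libraries alone.

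4 entries with a negative change were passenger strands of well-known hairpins, and in each both 12 h libraries lay below both 3 h libraries. miR-22-5p, at chr17:1713952-1713973 in an exon of MIR22HG, stood at 89.5 and 92.5 CPM at 3 h and 51.0 and 55.4 CPM at 12 h (log2 fold change -0.77 ± 0.21). miR-335-3p, from an intron of the imprinted gene MEST, stood at 38.0 and 32.9 against 15.1 and 20.3 CPM (-0.99 ± 0.29). miR-27b-5p stood at 64.8 and 73.9 against 38.4 and 40.7 CPM (-0.81 ± 0.25). let-7a-2-3p stood at 97.0 and 108 against 72.2 and 48.6 CPM (-0.77 ± 0.24). Their partner strands had changes of -0.31 ± 0.19 (miR-22-3p), -0.51 ± 0.24 (miR-335-5p), 0.11 ± 0.15 (miR-27b-3p) and -0.19 ± 0.14 (let-7a-5p). In DMSO over the same interval, miR-22-5p fell by 0.74 on the log2 scale (adjusted p = 0.0378 by edgeR), while miR-335-3p stood at 0.01.

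5 unnamed entries were in the set, all lower at 12 h. chr12_27013 stood at 163 and 126 CPM at 3 h and 65.6 and 62.6 CPM at 12 h (-1.17 ± 0.24; adjusted p = 0.131 by edgeR). chr19_36629 stood at 1497 and 1413 against 832 and 828 CPM (-0.81 ± 0.18; adjusted p = 0.131), and in DMSO it fell by 0.64. KI270790.1_41873 and chr4_10821 had identical counts in every library and are 1 measurement, 432 and 417 against 200 and 248 CPM (-0.92 ± 0.26). chr1_2271 stood at 39.3 and 35.2 against 13.6 and 15.5 CPM (-1.34 ± 0.33). All 5 passed with the 4 libraries alone. The last of the 20 was miR-4801, at 4.60 and 7.79 CPM against 0 and 1.59 CPM, too few reads for a firm size (-2.76 ± 0.82).

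**Figure D2:**
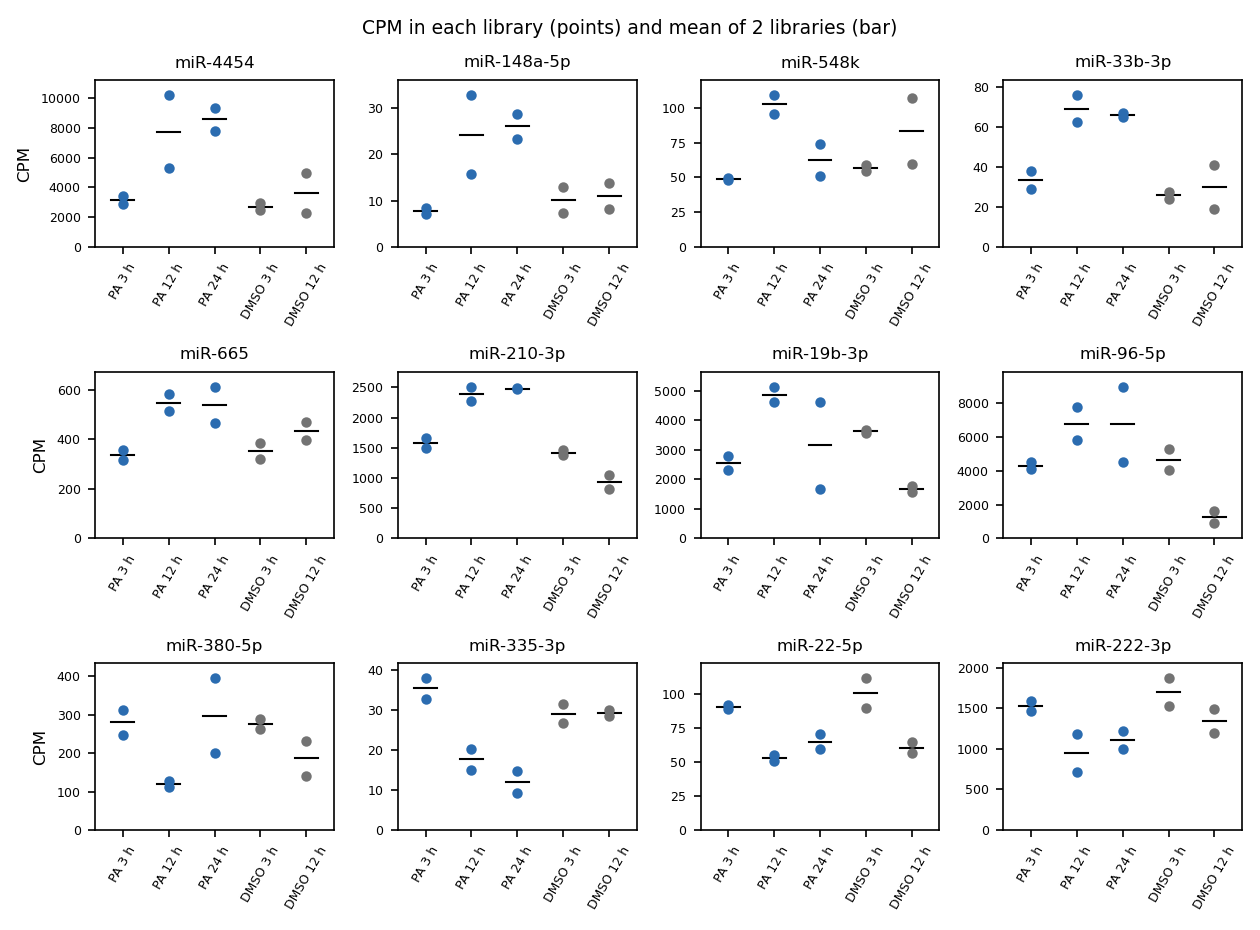
CPM (y, from 0) of 12 miRNAs in each library of PA 3 h, PA 12 h and PA 24 h (blue) and of DMSO 3 h and DMSO 12 h (grey), with a bar at the mean of 2 libraries. In all 12 the PA 3 h and PA 12 h points do not overlap. For miR-210-3p, miR-19b-3p and miR-96-5p, higher at 12 h in PA, the DMSO 12 h points lie below the DMSO 3 h points. The same holds in DMSO for miR-380-5p, lower at 12 h in PA, and other panels are not described here.

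The log2 fold changes of the 5 most abundant miRNAs ran from -0.42 to 0.13. miR-21-5p, which represses the tumour suppressor PDCD4, stood at 224375 and 208007 CPM at 3 h and at 170088 and 154132 CPM at 12 h, a log2 fold change of -0.42 ± 0.15 (edgeR adjusted p = 0.375). In DMSO it fell by 0.52 over the same interval, so the PA value lay near that of the vehicle. miR-29a-3p, a repressor of collagen genes, stood at 61634 and 63474 against 53218 and 46117 CPM (-0.33 ± 0.13). miR-27a-3p stood at 68014 and 77732 against 77398 and 81687 CPM (0.13 ± 0.14), and miR-22-3p at 49894 and 47308 against 47465 and 30813 CPM (-0.31 ± 0.19). miR-100-5p, a repressor of MTOR, stood at 100631 and 115775 against 98222 and 129153 CPM (0.07 ± 0.15), and its sign turned to -0.015 with PA 3 h A left out and to -0.11 with PA 12 h B left out. Of these 5, the libraries of miR-21-5p and miR-29a-3p did not overlap.

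Called with the 4 libraries alone, yet outside the 20 smallest p with all 14, were 8 entries, given here with the 4-library log2 fold change. miR-19b-3p (0.96), miR-19a-3p (1.17), miR-4697-3p (0.98), miR-96-5p (0.69) and miR-377-3p (0.54) were higher at 12 h, and miR-4802-3p (-0.98), miR-4310 (-0.89) and miR-92a-1-5p (-1.12) were lower. Both miR-19 miRNAs are cut from the MIR17HG transcript on chromosome 13 (miR-19b-3p also from a copy on chromosome X), and miR-92a-1-5p is the passenger strand of the last hairpin of that cluster. miR-19a-3p stood at 542 and 407 CPM at 3 h and at 902 and 1194 CPM at 12 h. miR-19b-3p stood at 2801 and 2317 against 4612 and 5142 CPM, so in both miRNAs the pairs did not overlap. With all 14 libraries their changes were 1.14 ± 0.39 (edgeR adjusted p = 0.346) and 0.93 ± 0.35 (adjusted p = 0.378). At PA 24 h the libraries of miR-19b-3p stood far apart, at 4636 and 1662 CPM.

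Lists of miRNAs by family, cluster or known role were counted next. No member of any list passed edgeR's test with all 14 libraries, and DESeq2 called 1, miR-4454 of the RNA fragment list. The lists described are therefore given by their signs or median, beside a median of 0.00 over all entries. For only some of them the number of members whose libraries lay apart is given too. Over all entries 22.8% lay apart above and 25.7% below. Leaving out 1 of the 4 libraries turned the sign of some list medians or moved them by over 1.5 times. Examples of such values are given beside the medians, but not all. A list without one is not thereby shown to be stable.

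The imprinted 14q32 cluster is a large array of miRNAs transcribed from the maternal allele of the DLK1 and MEG3 region. All 43 listed members were tested, and 37 had a positive change, with a median of 0.24 and a range of -0.25 to 0.998. In 20 of 43 both 12 h libraries lay above both 3 h libraries, and in 0 they lay below. Unadjusted p was under 0.05 for 6, all positive, beside 4.69% of all entries that were positive at that p: miR-409-5p, miR-377-3p, miR-154-3p, miR-654-3p, miR-379-5p and miR-539-5p. miR-409-5p stood at 711 and 863 CPM at 3 h and 957 and 1430 CPM at 12 h (0.60 ± 0.21). The 3 most abundant members overlapped between the times: miR-136-3p (1820 and 2020 against 1769 and 2408 CPM), miR-369-3p (1530 and 1411 against 1429 and 1330 CPM) and miR-411-5p (1023 and 1252 against 1102 and 1924 CPM). The summed level was 12423 and 13266 CPM at PA 3 h and 13900 and 16163 CPM at PA 12 h. In DMSO it went from 12574 and 12729 to 15656 and 14078 CPM, and the median of the list was 0.24 there too. Without PA 12 h A the number of positive members was 29 and the median 0.22, and under the other scalings it was 37 or 38 with a median of 0.24 to 0.29. miR-380-5p and miR-665, described above, also lie at 14q32 but were not on the list, and their signs were opposite. Further tested strands from hairpins of this cluster were not listed either. They held both signs, such as miR-431-3p (-0.81) and miR-379-3p (0.55), so the counts above hold for the listed members only.

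The miR-183 cluster on chromosome 7 gives miR-183-5p, miR-96-5p and miR-182-5p, which share FOXO transcription factors among their known targets. miR-96-5p stood at 4084 and 4523 CPM at 3 h and at 5821 and 7734 CPM at 12 h (0.66 ± 0.30). miR-183-5p stood at 1627 and 1899 against 2125 and 3294 CPM (0.62 ± 0.22), whereas miR-182-5p stood at 1765 and 1788 against 1687 and 1868 CPM (0.00 ± 0.17) and overlapped. The list median was 0.62 in PA and -0.50 in DMSO, and 0.30 in PA without PA 12 h B. miR-148b-3p, miR-152-3p and miR-148a-3p, which share 1 seed and repress DNMT1, were positive in 3 of 3 with a median of 0.45, or 0.21 without PA 12 h B. miR-148b-3p, the most abundant, stood at 4258 and 4220 against 4814 and 7215 CPM (0.50 ± 0.31).

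The miR-17-92 and paralogous clusters, known as growth-promoting targets of MYC, had 11 tested members, 3 positive and 8 negative, with a median of -0.13, or -0.07 without PA 12 h B and -0.09 without PA 3 h A. Beside the miR-19 pair, which was positive, miR-20a-5p stood at 4634 and 4395 CPM at 3 h and 4019 and 4189 CPM at 12 h (-0.14 ± 0.21). miR-92a-3p stood at 3202 and 2593 against 2590 and 2349 CPM (-0.23 ± 0.18). miR-17-5p stood at 2016 and 2222 against 1978 and 1714 CPM (-0.20 ± 0.19). The products of 1 transcript thus had values of both signs.

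The listed members of 4 families had negative changes throughout in the fit of all 14 libraries. For miR-181, miR-29 and miR-30 only 1 strand of each hairpin was listed. Their other tested strands held both signs, such as miR-30e-3p (0.26), miR-181a-2-3p (0.16), miR-181c-3p (-0.18) and miR-29a-5p (-0.49). All 4 listed miR-181 members were lower at 12 h in every pair of libraries, with a median of -0.32, or -0.17 without PA 3 h B. The most abundant, miR-181a-5p, stood at 12323 and 15952 CPM against 10686 and 12076 CPM (-0.31 ± 0.18). In the miR-29 family, 3 of 3 were lower in every pair, with a median of -0.33, or -0.21 without PA 12 h B. The miR-30 family, known for repressing SNAI1 and autophagy genes, was negative in 5 of 5 with a median of -0.26, though 1 member turned positive under scaling to total counts. miR-30a-5p stood at 5643 and 6005 against 4507 and 5301 CPM (-0.25 ± 0.17), and miR-30d-5p at 2020 and 1972 against 1492 and 1517 CPM (-0.41 ± 0.14). The miR-221 and miR-222 cluster was negative in 4 of 4 with a median of -0.25. Without PA 12 h B, 1 member of each of the last 2 lists was positive, as was 1 of the miR-30 family without PA 3 h A. In DMSO the medians of these 4 lists, in the same order, were -0.53, -0.55, -0.25 and 0.13.

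The let-7 family, repressors of RAS and MYC, had 9 tested members, 7 negative under TMM and 5 under scaling to total counts, with a median of -0.07. Without PA 12 h B its direction turned, with 6 positive and 3 negative members and a median of 0.07, and without PA 12 h A the median was -0.17. let-7i-5p stood at 11723 and 11297 against 11852 and 10617 CPM (-0.03 ± 0.15). The miR-15/16 family (median -0.03 over 7, 0.03 under total counts), the miR-23/27/24 clusters (0.05 over 5), the miR-99/100 and miR-125 list (0.10 over 7) and the miR-130 family (-0.20 over 4) also held members of both signs. With 1 of the 4 libraries left out these medians ran from -0.14 to 0.04, from -0.016 to 0.13, from 0.01 to 0.25 and from -0.33 to -0.06, in the same order, so the first pair of lists changed sign. In the miR-99/100 list, miR-99b-5p stood at 8991 and 10144 against 10887 and 14256 CPM (0.39 ± 0.16). The CLCN5 cluster on chromosome X had 8 positive and 5 negative members of 13 (median 0.07; 9 positive under total counts), and its median was -0.0096 with PA 3 h A left out and 0.17 with PA 3 h B left out.

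By known role, the list of sterol and lipid miRNAs had 6 positive of 7 (7 of 7 under total counts) and a median of 0.29, or 0.50 without PA 3 h B. 2 of the 7, miR-103a-3p and miR-103b, had identical counts. Its miR-33a-5p, which lies in an intron of SREBF2 and represses the cholesterol exporter ABCA1, stood at 107 and 148 CPM at 3 h and at 205 and 174 CPM at 12 h (0.57 ± 0.24). Of 4 hypoxia-responsive miRNAs, miR-210-3p was the only one with an unadjusted p under 0.05, and the list median was 0.10, or -0.015 without PA 12 h A and 0.22 without PA 12 h B. The 12 miRNAs induced by NF-kB and inflammation had 7 positive and 5 negative changes with a median of 0.07. Without PA 3 h A these were 5 and 7 (median -0.10), and without PA 12 h B 4 and 8 (median -0.21), so the direction turned with 1 library. miR-146a-5p, which represses IRAK1 and TRAF6, stood at 32214 and 34534 against 37211 and 39957 CPM (0.21 ± 0.14), and miR-132-3p at 59.4 and 69.8 against 36.3 and 44.3 CPM (-0.68 ± 0.26). In the HOX-embedded list, miR-10a-5p stood at 25440 and 26796 against 30790 and 36701 CPM (0.37 ± 0.18), and the list was positive in 8 of 10 (9 under total counts) with a median of 0.11, which ran from 0.06 without PA 12 h B to 0.30 without PA 12 h A. The list of miRNAs of the immediate-early and growth factor response had 10 tested members with a median of 0.08, which turned to -0.09 without PA 12 h A and was 0.03 without PA 3 h B.

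**Figure D3:**
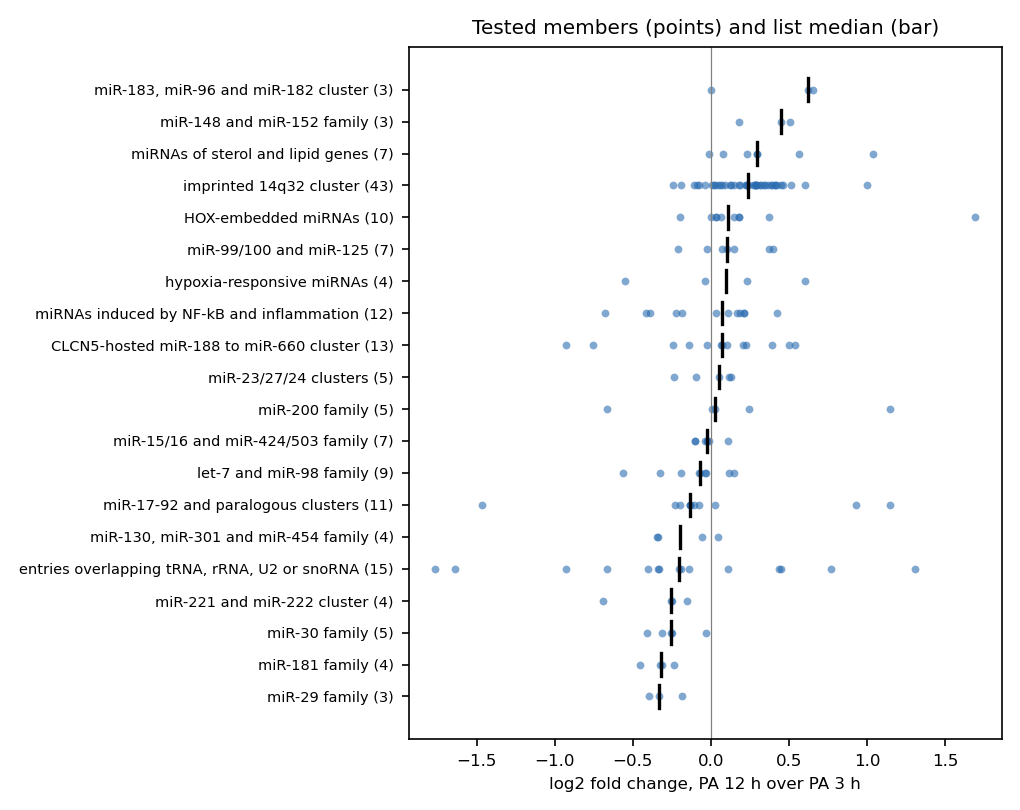
Log2 fold change of PA 12 h over PA 3 h (x) for the tested members (points) of 20 lists, with the list median as a bar and the number of tested members in parentheses. The medians run from 0.62 for the miR-183 cluster to -0.33 for the miR-29 family, and no plotted member passed edgeR's test with all 14 libraries.

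The cell line's own markers held miR-21-5p at the top of the table, miR-196a-5p at 1837 and 1894 CPM and miR-31-5p at 8930 and 8734 CPM at PA 3 h. The epithelial miR-200 family stood low, between 3.39 and 29.8 CPM in the PA 3 h libraries and between 4.04 and 23.9 CPM at PA 12 h. Its median change was 0.03 over 5 members, and its sign and size depended on single libraries. With a 3 h library left out the median was -0.20 (A left out) or 0.31 (B), and with a 12 h library left out it was 0.63 (A) or -0.31 (B). Of 7 blood markers in the table only miR-486-5p was tested (297 and 386 CPM at 3 h, 403 and 500 CPM at 12 h). The red cell marker miR-451a reached at most 0.339 CPM in the 4 libraries, and miR-150-5p had 0 counts in all of them. Of 5 acinar and islet markers 2 were tested, miR-7-5p and miR-375, and miR-216a-5p had 0 counts. The 4 markers of muscle, liver and neurons summed to 3.34 and 0 CPM at 3 h and 1.01 and 3.19 CPM at 12 h, and none was tested. The fibroblast and endothelial markers had 7 tested of 8, with 5 positive and 2 negative changes. Their median was 0.42, or 0.16 without PA 3 h A. Of the 7, 4 were apart and higher at 12 h and 1 was apart and lower. These markers summed to 1301 and 1481 CPM at PA 3 h and 1346 and 1087 CPM at PA 12 h, nearly all miR-126. miR-143-3p stood at 12.1 and 15.2 against 29.8 and 21.1 CPM (0.88 ± 1.30). Entries that overlap tRNA, rRNA, U2 or snoRNA, a sign of RNA fragments, summed to 4650 and 4916 CPM at 3 h and 6876 and 11468 CPM at 12 h, with a list median of -0.20 and 10 negative of 15. That median was -0.05 or -0.35 with the 3 h library A or B left out, and -0.40 or -0.04 with the 12 h library A or B left out. Most of each 12 h sum was miR-4454, whose levels are given above. The part of RNA fragments in the other changes was not tested.

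How small a change the comparison could bound depended on abundance. The 95% interval of the log2 fold change lay within -1 and 1 for 339 of 810 entries (41.9%). It did so for 73 of 83 entries with a mean of at least 1000 CPM, 129 of 154 from 100 to 1000 CPM, 133 of 281 from 10 to 100 CPM and 4 of 292 below 10 CPM. For miR-21-5p the interval was -0.74 to -0.09, and for miR-27a-3p -0.17 to 0.42. For the other 288 entries below 10 CPM the interval reached past -1 or 1, so changes of that size were not bounded at this depth.

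Over the same interval in DMSO, 88 of 810 entries (10.9%) passed edgeR's test, 29 higher and 59 lower at 12 h. This split turned to 42 higher and 30 lower under scaling to total counts, which shifted the median of all entries in DMSO from 0.06 to 0.19, and was 35 and 42 with DESeq2's size factors. The count was 2 with only the 4 DMSO libraries of 3 and 12 h, 31 without DMSO 3 h A, 17 without DMSO 3 h B, 57 without DMSO 12 h B and 59 to 95 without any 1 of the other libraries. The median absolute change was 0.30 in PA and 0.46 in DMSO. Over the 810 entries the PA and DMSO changes, which share no library, had a Spearman correlation of 0.16 and the same sign in 463 (57.2%). The points share the fit's scaling and each entry's abundance. Of the 82 entries with an unadjusted p under 0.05 in PA, 58 (70.7%) had the DMSO sign, as had 15 of the 20 with the smallest p. Among the 88 that passed in DMSO, 64 had the same sign in PA and 19 an unadjusted p under 0.05 there. Their median absolute change was 0.24 in PA beside 0.91 in DMSO, the latter being the contrast that chose them. Across the 597 named entries with a RefSeq sequence, the Spearman correlation of GC content with the change was 0.01 in PA and 0.27 in DMSO. The part of base composition in the DMSO change was not tested.

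The difference between the PA and the DMSO change was tested directly and passed for 10 of 810 entries (1.23%), 7 more positive and 3 more negative in PA. In the same fit of all 14 libraries, all 10 also passed in DMSO and none did in PA. Their mature sequences, from RefSeq with the seed in capitals, are shown because these miRNAs carry the difference.
miR-96-5p: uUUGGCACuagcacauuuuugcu
miR-377-3p: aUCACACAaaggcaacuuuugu
miR-362-3p: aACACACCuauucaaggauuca
miR-27a-3p: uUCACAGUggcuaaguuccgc
miR-33a-5p: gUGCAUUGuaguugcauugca
miR-135a-5p: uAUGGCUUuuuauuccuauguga
miR-146b-5p: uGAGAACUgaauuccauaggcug
miR-99a-5p: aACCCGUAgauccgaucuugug
miR-210-3p is printed above, and the remaining entry, chr14_29384, is unnamed. The 8 sequences have 8 different seeds.

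miR-96-5p had the smallest adjusted p. In DMSO it fell from 4059 and 5256 CPM at 3 h to 1640 and 940 CPM at 12 h, while the PA libraries went from 4084 and 4523 to 5821 and 7734 CPM. The difference was 2.51 ± 0.42 on the log2 scale (edgeR adjusted p = 0.016). miR-377-3p, a 14q32 member, fell in DMSO from 488 and 522 to 253 and 235 CPM and in PA went from 432 and 507 to 676 and 665 CPM, a difference of 1.56 ± 0.29 (adjusted p = 0.016). miR-33a-5p fell in DMSO from 134 and 135 to 67.2 and 54.6 CPM, and the difference was 1.70 ± 0.35 (adjusted p = 0.0271). miR-210-3p had a difference of 1.21 ± 0.26 (adjusted p = 0.0282). In these 4 both 12 h libraries lay above both 3 h libraries in PA and below them in DMSO.

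For the other 6, nearly the whole difference lay in DMSO. miR-27a-3p fell there from 74505 and 71963 to 45434 and 37460 CPM, and the difference was 0.95 ± 0.20 (edgeR adjusted p = 0.0271). miR-362-3p of the CLCN5 cluster fell from 197 and 217 to 78.6 and 54.6 CPM, beside 187 and 187 against 198 and 194 CPM in PA (1.68 ± 0.31). miR-135a-5p, a repressor of APC, fell from 14.1 and 12.3 to 2.85 and 0.91 CPM (2.99 ± 0.65). miR-146b-5p rose in DMSO from 199 and 219 to 510 and 639 CPM (-1.35 ± 0.29), and miR-99a-5p from 184 and 204 to 950 and 432 CPM (-1.74 ± 0.38). chr14_29384 rose from 0.38 and 3.51 to 155 and 323 CPM in DMSO and stayed between 1.02 and 2.52 CPM in the PA libraries of 3 and 12 h (-6.72 ± 1.25).

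These 10 calls depended on the DMSO time used as reference and on single libraries of both treatments. With DMSO 24 h in place of DMSO 12 h, a comparison in which the times differ, 0 entries passed edgeR's test (28 at an unadjusted p under 0.05). DESeq2 was not run for that replacement. Leaving out 1 DMSO library gave 4 calls (3 h A left out), 1 (3 h B), 39 (12 h A) or 5 (12 h B), and 9 to 11 for any 1 of the other 4. Leaving out 1 PA library gave 0 (3 h A), 7 (3 h B), 1 (12 h A), 9 (12 h B), 16 (24 h A) or 18 (24 h B).

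**Figure D4:**
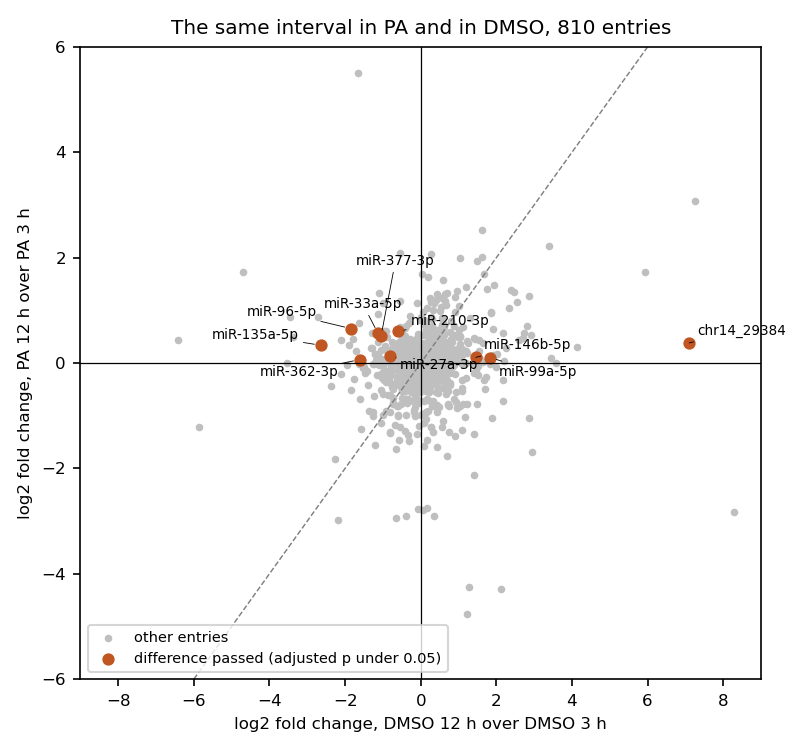
Log2 fold change of DMSO 12 h over DMSO 3 h (x) against PA 12 h over PA 3 h (y) for 810 entries, with a dashed line where both are equal and orange points for the 10 entries whose difference passed. The orange points lie from -2.65 to 7.10 along x, none nearer to 0 than -0.61, and from 0.06 to 0.66 along y.

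The unnamed entry chr8_19924 stood at 461 and 310 CPM at PA 3 h and 635 and 630 CPM at PA 12 h (0.72 ± 0.31), before 7210 and 10822 CPM at PA 24 h, so most of its increase lay outside this interval. miR-7704 stood at 95.7 and 48.5 CPM at PA 3 h and 46.4 and 96.1 CPM at PA 12 h and overlapped.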

How the data were processed

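Small RNA of PANC-1 cells was measured in 14 libraries, 2 in each of 7 groups given by the labels. The authors deposited a table of raw read counts for 2848 mature miRNA entries (2346 named). A second deposited table of normalized values was not used. Per the submitters' processing notes the authors used bcl2fastq, Bowtie and edgeR with GRCh38, but their versions and roles, and how multi-mapping reads were counted, are not given in the sources used here. Each of the 14 value columns matched a library title.

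These counts entered edgeR 4.0.16 under R 4.3.3 (robust quasi-likelihood F test with TMM factors) after filterByExpr by group (minimum count 10, minimum total 15), in 1 fit of all 14 libraries. Contrasts were PA 12 h minus PA 3 h, DMSO 12 h minus DMSO 3 h, and their difference. Benjamini-Hochberg adjustment ran over all 810 entries, with a threshold of 0.05. DESeq2 1.42.0 was an alternative. The code was tested on simulated counts. Unnamed entries took 1.65% to 3.17% of the counts of a library. SE values include the spread between libraries, whereas PCR copies of a read are not separate molecules.

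Named entries were the 20 with the smallest unadjusted p (the rule for fewer than 20 passing), the 5 most abundant, and the 10 smallest adjusted p of the difference. From lists, the most abundant members and those with the smallest p were named. The members and lists were chosen with earlier results of these data known. miRNA sequences and positions are RefSeq's (GRCh38.p14), and overlaps with genes are from GENCODE v29 (GRCh38). Alternatives covered scaling, filter, tool, libraries in the fit, robust estimation, named entries only, a replicate block and leaving out each library. Keeping sets of identical counts once was chosen after seeing the data.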

Additional observations from a re-analysis of the deposited data

Results flagged for a closer look

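In 10 entries the change from 3 to 12 h differed between PA and DMSO by a test of the difference itself (edgeR, adjusted p under 0.05). On the log2 scale the PA change minus the DMSO change was 2.51 for miR-96-5p, 1.56 for miR-377-3p, 1.68 for miR-362-3p and 0.95 for miR-27a-3p. It was 1.70 for miR-33a-5p, 1.21 for miR-210-3p and 2.99 for miR-135a-5p. It was -1.35 for miR-146b-5p, -1.74 for miR-99a-5p and -6.72 for chr14_29384. All 10 also passed for DMSO 12 h against DMSO 3 h in the fit of all 14 libraries (2 entries passed there when only those 4 DMSO libraries were fitted), and 0 passed for the difference with DMSO 24 h as the reference.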

How the results depend on the processing

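For PA 12 h against PA 3 h the 0 calls became 4 with DESeq2, 8 with no filter on low counts, 20 with only the 4 libraries compared and 3 without both DMSO 12 h libraries. Leaving out 1 library gave 0 to 6. The other alternatives gave 0. For DMSO the 88 calls became 2 with only the groups compared, and 17 to 95 with 1 library left out. For the difference the 10 calls became 24 with DESeq2, 19 with no filter, 0 with DMSO 24 h in place of DMSO 12 h, and 0 to 39 with 1 library left out. With DMSO 24 h the sign turned for miR-210-3p (-0.0078), miR-135a-5p (-0.14) and miR-99a-5p (0.51). For miR-100-5p in PA the change ran from -0.11 to 0.25 with 1 library left out, and it was negative (-0.015 and -0.11) with PA 3 h A or with PA 12 h B left out. Leaving out a library also changed how many entries passed the filter, and the cause of the other shifts was not tested.

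With the letter A or B as a replicate block, 0, 85 and 9 entries passed in PA, DMSO and the difference. miR-99a-5p then missed the threshold (edgeR adjusted p = 0.0536). Same-letter libraries did not deviate together: of 21 pairs of groups 1 had a correlation over 0.1, the range was -0.17 to 0.11, and PA 3 h with PA 12 h gave 0.08. Keeping each set of identical counts once, chosen after seeing the data, gave 0, 85 and 10 calls. Depth limited entries below 10 CPM, of which 288 of 292 had an interval past -1 or 1 on the log2 scale.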

Other observations

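In 159 pairs of tested strands from the same hairpin, the rarer strand was compared with the more abundant one over the PA interval. This comparison was chosen after the values of several passenger strands were seen. The pairs are not all separate measurements. Some strands, such as let-7a-5p, occur in more than 1 pair. miR-423-5p and miR-3184-3p had the same values, and miR-4633-5p and miR-4633-3p nearly the same. The rarer strand had the lower log2 fold change in 90 of 159, and the median difference was -0.07. At an unadjusted p under 0.05 the 159 rarer strands had 12 negative and 5 positive changes. The 152 more abundant strands had 5 negative and 11 positive. Over all 810 entries the shares at that p were 5.43% negative and 4.69% positive. In DMSO the rarer strand was lower in 78 of 159, with a median difference of 0.02. The summed share of the rarer strands was 1.88% and 1.81% of both strands at PA 3 h, 1.79% and 1.70% at PA 12 h and 1.42% and 1.52% at PA 24 h. In the 8 DMSO libraries it lay between 1.67% and 1.999%. No test was run on this pattern.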
